A study of Mus musculus with 19 samples.

Results

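The small proline-rich (Sprr) and late cornified envelope (Lce) genes filled 35 of the 18521 gene rows counted in skin of mice that develop basal cell carcinoma (BCC). They were taken by name: each symbol that begins with Sprr or Lce followed by a digit, with at least 10 counts summed over all 19 libraries. The set held 14 Sprr genes, namely 2 of the Sprr1 family, 10 of the Sprr2 family, Sprr3 and Sprr4. It also held 21 Lce genes, namely 14 of the Lce1 family, 6 of the Lce3 family and Lce6a. After a filter on low counts 34 of them were tested, and Sprr3, with 30 counts in all libraries together, was not.

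RNA was measured in skin pieces of 1 cm2 from 16 female mice, all labelled as the strain Ptch1+/- K14-CreER2 p53fl/fl. They lack 1 Ptch1 allele and carry floxed Trp53 with a Cre that tamoxifen activates in cells using the keratin 14 promoter, so only those cells can lose Trp53. The study asked what ablative fractional laser (AFL), which burns a grid of microscopic holes into skin, and topical vismodegib, which blocks the Hedgehog protein Smoothened, do to early BCC. The healthy group was neither induced nor treated (5 mice, 6 libraries, 128 to 137 days old). The libraries of its mouse 16 carry 1 mouse number but ages of 128 and 135 days, and were summed as 1 mouse. The other groups were induced with 3 injections of 300 µg tamoxifen and 1 x-ray dose of 4 Gy. The BCC group received nothing further (4 mice, 278 to 320 days old, 130 to 144 days after induction). The AFL group received 1 laser treatment at 5% density with 40 mJ per microbeam (3 mice, 4 libraries, 228 to 326 days old, 80 to 126 days after induction). The vismodegib group received 8 applications (4 mice, 5 libraries, 268 to 326 days old, 109 to 137 days after induction). Treated skin was taken on day 4. Healthy mice were younger than every induced mouse, so age and induction cannot be told apart. Every AFL mouse was taken sooner after induction than every BCC mouse, and no mice given vehicle or a sham treatment were analysed here.

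The cornified envelope is the insoluble protein shell that replaces the membrane of a keratinocyte as it becomes a dead, flattened cell of the skin surface. Transglutaminases sew loricrin, involucrin, SPRR and LCE proteins into that shell. SPRR proteins are short, proline-rich cross-bridges, and several are known as stress and wound genes of squamous epithelia. The LCE1 group belongs to normal epidermal cornification, whereas LCE3 genes are known for induction in injured and inflamed skin such as psoriatic plaques.

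Library totals lay between 27185921 and 33556611 counts, and all 35 genes together took 0.0976% to 0.556% of a mouse's counts. Values are CPM, counts scaled to a common library total with TMM factors, per mouse, and n is the number of mice. Mouse 9 of the vismodegib group stood apart in its TMM factor, 0.591 against 0.906 to 1.18 in the other mice. Trp53 matched the labels, with 94.0 to 143 CPM in healthy mice and 23.6 to 55.1 CPM in induced mice. Keratinocyte genes were plentiful in every mouse: the summed CPM of 9 markers of interfollicular epidermis ran from 10447 to 17825 in healthy skin, 13631 to 20694 in BCC, 15153 to 31253 after AFL and 28434 to 60943 after vismodegib. Marker by marker against BCC, 3 of the 9 rose after vismodegib and 0 after AFL, with median log2 fold changes of 0.60 and -0.33. Of all genes 8.03% and 6.10% rose. In whole skin a larger number of cells of a type and more RNA per cell cannot be told apart.

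The members lie in a cluster on mouse chromosome 3, in the order Sprr2, Sprr1b, Sprr3, Sprr1a, Sprr4, Lce6a, Lce1, Lce3 and Lce1m. Only members were placed in this order, and other genes may lie between them. RefSeq sequence before the annotated start was found for 34 of the 35 members (build GRCm38.p6), and the 250 bases before each start were searched on both strands. The letters TGAGTCA, or TGACTCA on the other strand, are bound by AP-1, the pair of Fos and Jun proteins. They were present in 8 of the 34 windows and in 4.46% of 32851 RefSeq windows of the same length. The 8 were Sprr1a and all 7 genes from Sprr2b to Sprr2k. In these 7 a match lay within 187 to 198 bases before the start. Copies of 1 family with a match at nearly the same place are not independent windows. The stretches of all 8, of 90 bases each, are shown, with the match in capitals. Between the treatments 6 of these 7 Sprr2 genes, all but Sprr2k, differed, while Sprr2a1, Sprr2a2 and Sprr2a3 were not called. Sprr1a was called in no comparison, and Lce3a, Lce3b and Lce3f differed between the treatments without a match. A link between these letters and the levels was not tested.
Sprr2b: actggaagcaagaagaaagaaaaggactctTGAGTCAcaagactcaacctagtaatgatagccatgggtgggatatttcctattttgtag
Sprr2d: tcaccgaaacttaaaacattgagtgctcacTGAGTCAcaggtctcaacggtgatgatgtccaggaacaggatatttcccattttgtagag
Sprr2e: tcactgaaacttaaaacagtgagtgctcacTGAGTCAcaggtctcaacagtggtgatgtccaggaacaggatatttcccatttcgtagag
Sprr2f: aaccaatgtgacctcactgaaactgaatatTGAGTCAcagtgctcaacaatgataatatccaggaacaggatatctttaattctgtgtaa
Sprr2h: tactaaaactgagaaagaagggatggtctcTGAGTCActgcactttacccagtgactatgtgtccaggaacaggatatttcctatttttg
Sprr2i: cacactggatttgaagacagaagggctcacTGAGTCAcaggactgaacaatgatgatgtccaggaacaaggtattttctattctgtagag
Sprr2k: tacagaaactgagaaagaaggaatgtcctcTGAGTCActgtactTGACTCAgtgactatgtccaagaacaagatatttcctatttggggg
Sprr1a: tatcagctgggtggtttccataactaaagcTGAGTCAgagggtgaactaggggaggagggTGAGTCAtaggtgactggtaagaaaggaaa

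On the plus strand lie the stretches of Sprr2b (chr3:92316480-92316569), Sprr2d (chr3:92338917-92339006), Sprr2e (chr3:92351920-92352009), Sprr2f (chr3:92364960-92365049), Sprr2h (chr3:92385457-92385546), Sprr2i (chr3:92407768-92407857) and Sprr2k (chr3:92432356-92432445). The Sprr2d stretch covers 134 to 223 bases before the start, outside the gene. The Sprr1a stretch is chr3:92485968-92486057 on the minus strand, with a pair of matches in the same direction. Sprr2k also held a pair, in opposite directions. The windows of Sprr2a1, Sprr2a2, Sprr2a3, Sprr1b, Sprr3, Sprr4 and the 20 Lce genes with a window held no match. No match says only that these letters are not in this window, and RefSeq and GENCODE vM21 place the start 36 bases apart for Sprr2a1, 113 for Sprr2a3, 85 for Sprr2b and 14 for Sprr1a. For Sprr2a2 they lie 34727 bases apart, GENCODE vM21 giving that name to a start beside Sprr2a1, so its window may not be that of the gene counted. The letters TATAAA, the spelling of a TATA box, stood in 14 of the 34 windows against 12.4% of all windows. The STAT letters TTCNNNGAA stood in 2 of 34 against 7.02%. Both were counted at any place in the window and on either strand. All genes from Sprr2b to Sprr2k held TATAAA at 24 to 29 bases before the start, so these too are not independent windows. A match is a description of letters, not a site shown to be bound.

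Reads cannot always be assigned within these families. Sprr2a1 and Sprr2a2 carried the same counts in all 19 libraries and are a single measurement. The counts of members below hold both; counted once, 17 in place of 18 rose after vismodegib against BCC, 22 in place of 23 against healthy skin, and 19 in place of 20 after AFL against healthy skin. Of the words of 50 bases in their GENCODE vM21 transcripts, 96.3% and 96.5% recur in other members, and 61.1% for Sprr2a3. The shares were 35.7% to 49.3% for Lce3c, Lce3d, Lce3e and Lce3f, 0 to 14.1% for Sprr2b to Sprr2k, and 0 for Sprr1a, Sprr1b, Sprr4, Lce6a and Lce1m. Family sums are therefore given beside single genes. The Sprr2 sums and shares add the rows of both Sprr2a1 and Sprr2a2. How reads common to both were divided is not given, so these sums and shares may hold the same reads more than once.

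The Sprr2 family was highest in the treated groups. Its summed level was 38.2 ± 21.1 CPM in the 5 healthy mice (mean and SD) and 118 ± 69.7 CPM in the 4 BCC mice. It was 616 ± 291 CPM in the 3 AFL mice and 3434 ± 1272 CPM in the 4 vismodegib mice. Both treated groups lay wholly above the BCC group, whose highest mouse had 203 CPM, and the lowest vismodegib mouse (2015) lay above the highest AFL mouse (917). The Lce3 sum followed the same order of means, at 5.64 ± 5.51, 19.3 ± 14.4, 59.4 ± 6.01 and 307 ± 139 CPM. The Lce1 sum did not: 625 ± 330, 731 ± 393, 925 ± 650 and 635 ± 319 CPM, with all groups overlapping. The Sprr1 sum was 708 ± 634, 347 ± 224, 498 ± 214 and 1110 ± 148 CPM. No test was run on sums, because the members were chosen with results of these data known.

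**Figure D1:**
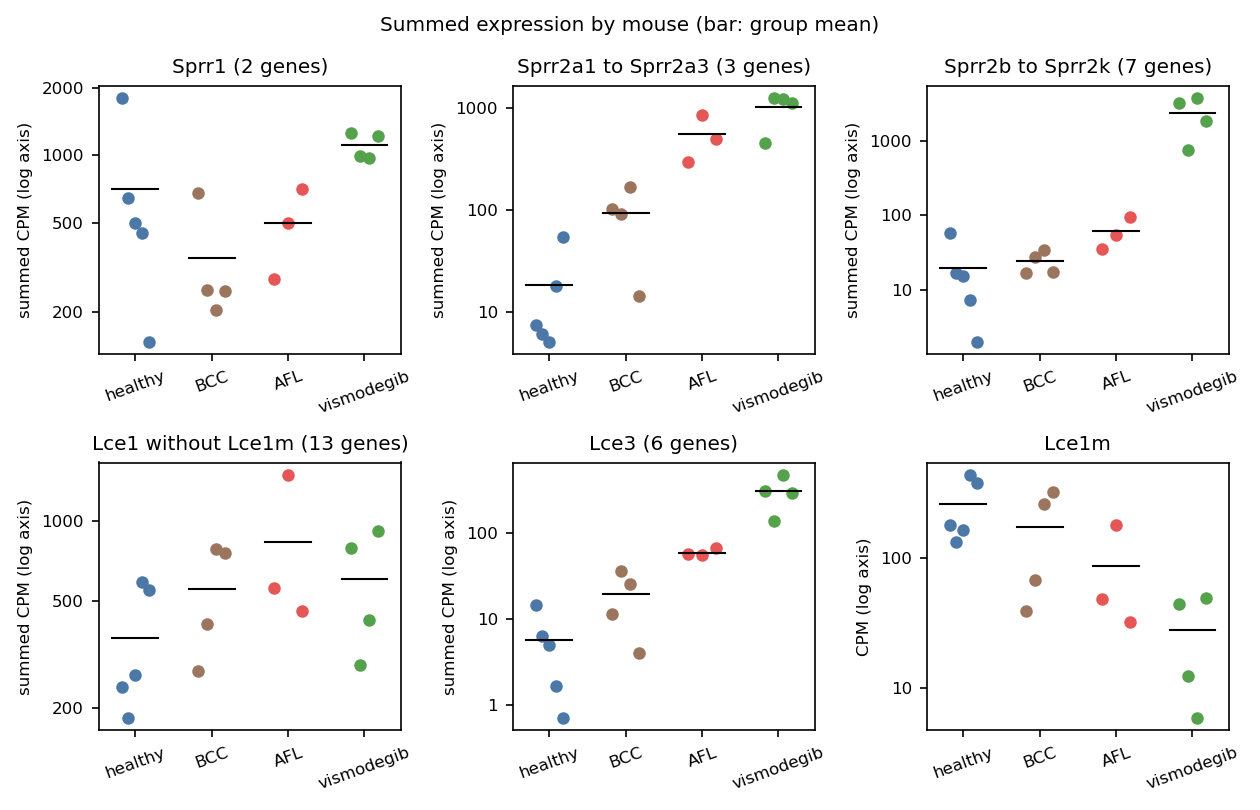
Each panel plots summed CPM (a single gene for Lce1m) on a log axis against the group, with a point per mouse and a bar at the group mean. Sprr2b to Sprr2k and Lce3 stand clear of every other group after vismodegib, Sprr2a1 to Sprr2a3 are high after both treatments, and Lce1m runs the other way.

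Induced, untreated skin was first compared with healthy skin. Of the 34 members, 9 rose and 0 fell in BCC, where 2.66% of all 15760 genes rose and 0.159% fell. Risers were 4 of 10 Sprr2 genes (Sprr2b, Sprr2d, Sprr2e and Sprr2i), 3 of 6 Lce3 genes (Lce3b, Lce3e and Lce3f) and 2 of 14 Lce1 genes (Lce1f and Lce1g). At an unadjusted p under 0.05 the counts were 16 up and 0 down, where 8.91% and 5.28% of all genes passed. In 9 members every BCC mouse lay above every healthy mouse and in 0 below, where 5.18% and 1.47% of all genes did. The median log2 fold change over the members was 1.26, and over all genes -0.0036. Many of these risers were near the floor in healthy skin: Lce3e held 4 counts over all healthy mice and Sprr2i held 8, so their fold changes are imprecise.

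Sprr2d had 0.177, 0.350, 0.221, 0.724 and 0.810 CPM in the 5 healthy mice and 2.72, 10.8, 13.2 and 7.55 in the 4 BCC mice. The groups did not overlap, and the log2 fold change was 4.19 (SE 0.63, adjusted p = 0.00107, edgeR's quasi-likelihood test). Sprr2e rose by 4.39 (SE 0.64, adjusted p = 0.000964) from a healthy range of 0.0296 to 0.275 CPM to 1.19 to 4.29 CPM.

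Lce3f rose from 0.0289 to 0.207 CPM in healthy mice to 2.58, 10.9, 7.49 and 1.17 CPM in BCC (log2 fold change 5.90, SE 0.64, adjusted p = 0.000142). Lce3e was at 0 in 3 of 5 healthy mice and at 1.71, 6.76, 4.57 and 0.354 CPM in BCC mice (7.24, SE 0.86, adjusted p = 0.000234). Mouse 8 was the lowest BCC mouse for both.

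Lce1g was the Lce1 gene that moved furthest, from 2.63, 1.20, 3.17, 2.75 and 4.19 CPM in healthy mice to 12.5, 17.2, 29.8 and 13.7 CPM in BCC. No mouse overlapped, and the log2 fold change was 2.71 (SE 0.40, adjusted p = 0.00105). Its neighbour Lce1f rose by 1.67 (SE 0.41, adjusted p = 0.0355), and that call was lost on leaving out mouse 10, 13 or 14 of the healthy group, or mouse 4, 5 or 8 of the BCC group. The call of Lce3b (3.20, SE 0.75, adjusted p = 0.0281) was lost on leaving out mouse 13, 15 or 16 (healthy), or mouse 4 or 5 (BCC). Its BCC values overlapped the healthy ones. Sprr2a1 stood at 2.34 (SE 0.73, adjusted p = 0.12) and was not called. Under DESeq2 it was among 15 members called up in this comparison, where 4.66% of all genes were, and limma voom called 5, where 2.15% were.

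AFL was set against untreated BCC, with which vismodegib is compared as well, so both contrasts share the BCC mice. After AFL, 1 of 34 members rose and 0 fell, where 6.10% of all genes rose and 1.65% fell. That gene was Lce1g, at 40.9, 85.5 and 37.0 CPM against the BCC values above (log2 fold change 1.58, SE 0.43, adjusted p = 0.0353). All 3 AFL mice lay above all 4 BCC mice, but the call ended without BCC mouse 3, 4 or 8 and without AFL mouse 7 or 11. It also ended with library size alone (1.41, adjusted p = 0.0835), in limma voom (adjusted p = 0.133) and with days since induction in the fit (0.68, adjusted p = 0.483), where Sprr2k alone was called.

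Further members were higher in every AFL mouse without reaching the threshold. Over the 34, 12 had no overlap upward, where 11.5% of all genes had none, and 13 had an unadjusted p under 0.05, all higher, where 12.0% of all genes passed upward and 8.64% downward. No overlap downward was seen in 0 of the 34 and in 7.34% of all genes. The median was 1.05, against -0.0373 over all genes. Sprr2a1 had 125, 380 and 217 CPM after AFL and 43.2, 36.8, 69.9 and 5.80 CPM in BCC (2.63, SE 0.83, adjusted p = 0.068). Sprr1b had 115, 165 and 367 CPM after AFL and 60.6, 58.8, 37.6 and 12.4 CPM in BCC (2.35, SE 0.75, adjusted p = 0.0719). 5 of the 6 Lce3 genes did not overlap either, with Lce3e at 9.61, 12.8 and 12.1 CPM (1.78, SE 0.65, adjusted p = 0.115). Other tools called more of them: 6 members in DESeq2, where 7.90% of all genes were called up, and 6 in limma voom, where 6.25% were, both lists holding Sprr1b, Sprr2a1, Sprr2a2 and Sprr2a3.

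Against healthy skin the AFL group showed 20 members up and 0 down, where 7.95% of all genes rose and 1.29% fell. At an unadjusted p under 0.05 there were 25 and 0, where 15.0% and 10.2% of all genes passed. Without overlap, 22 lay higher and 0 lower, against 14.7% and 11.0% of all genes. The 20 that rose were 8 of 10 Sprr2 genes, 5 of 6 Lce3 genes, Sprr1b and 6 neighbouring Lce1 genes from Lce1e to Lce1k, all but Lce1i. Lce3f had the smallest p (log2 fold change 6.96, SE 0.67, adjusted p = 1.26e-05), with 11.3 to 11.9 CPM in the 3 AFL mice. Sprr2d rose by 5.55 (SE 0.67, adjusted p = 5.66e-05) and Lce1g by 4.28 (SE 0.43, adjusted p = 1.73e-05). Sprr2f at 2.25 (SE 0.72), Sprr2h at 0.53 (SE 0.81) and Lce3c at 2.06 (SE 0.70) were not called. The call of Lce3a was lost without healthy mouse 13 or 15 or AFL mouse 2 or 11. Those of Lce1h and Lce1j were lost without AFL mouse 7, and that of Sprr2k without AFL mouse 11.

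Vismodegib was set against the same untreated BCC mice, and the whole Sprr2 and Lce3 families rose. Of 34 members 18 rose and 1 fell, where 8.03% of all genes rose and 9.00% fell. The 18 were 10 of 10 Sprr2 genes, 6 of 6 Lce3 genes, Sprr1b and Lce1g, and Lce1m fell. Without overlap, 17 lay higher and 0 lower, against 7.63% and 8.74% of all genes. The member median was 2.17, against 0.0544 over all genes. Dividing by library size alone lowered the all-gene median by 0.35 and left 16.9% of all called genes up in place of 47.2%, yet 17 members still rose and 1 fell, Lce1g losing its call.

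**Figure D2:**
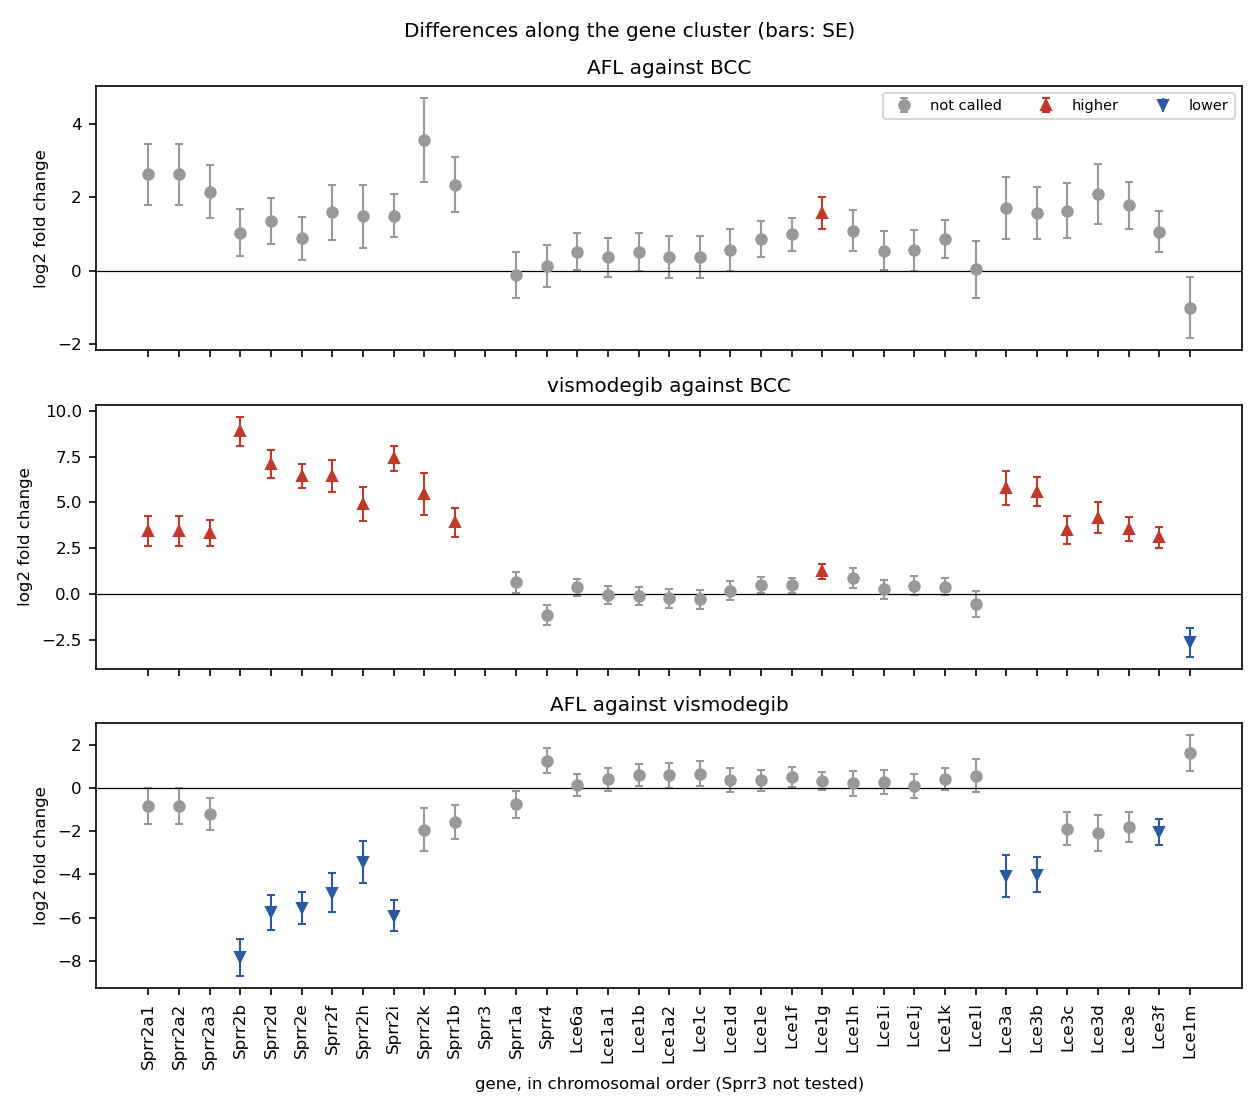
Log2 fold changes of the 34 tested members in chromosomal order, with SE as bars, for AFL against BCC (top), vismodegib against BCC (middle) and AFL against vismodegib (bottom). Triangles mark genes with an adjusted p under 0.05, and the 2 blocks that rise after vismodegib, Sprr2 with Sprr1b and Lce3, flank the Lce1 genes, of which Lce1g is marked as higher; Lce1m, at the end, is marked as lower.

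Sprr2b, a cross-bridge gene barely read in healthy skin (12 counts over the group), showed the widest difference. It had 0.290, 1.03, 1.21 and 1.20 CPM in BCC and 606, 124, 724 and 321 CPM after vismodegib, with no overlap. The log2 fold change was 8.89 (SE 0.79, adjusted p = 4.13e-05), or 474-fold. Sprr2i moved by 7.42 (SE 0.68, adjusted p = 4.13e-05), from 0.406 to 1.21 CPM in BCC up to 46.1 to 257 CPM.

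Sprr2d reached 1657, 351, 1814 and 888 CPM after vismodegib (7.10, SE 0.76, adjusted p = 0.000109). Sprr2e ran from 70.4 to 465 CPM, Sprr2f from 54.2 to 131 and Sprr2h from 114 to 413, with log2 fold changes of 6.45, 6.44 and 4.90. Sprr2k had 0.692 to 7.22 CPM against 0 to 0.124 in BCC, where it held 7 counts over the group (5.48, SE 1.14, adjusted p = 0.00505). In each of the genes from Sprr2b to Sprr2i, mouse 6 was the lowest vismodegib mouse and still above every BCC mouse.

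The order of mice was different for the Sprr2a genes. Sprr2a1 had 193, 516, 506 and 489 CPM in vismodegib mice 1, 6, 9 and 12, so that mouse 1, near the top for Sprr2d, was the lowest here (3.45, SE 0.83, adjusted p = 0.0118). Sprr2a3, at 72.3, 223, 213 and 155 CPM, followed suit (3.34, SE 0.72, adjusted p = 0.00639).

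Among the Sprr1 genes, Sprr1b rose and Sprr1a was not called. Sprr1b had 776, 354, 680 and 732 CPM after vismodegib, above every BCC and healthy mouse (3.91, SE 0.77, adjusted p = 0.0037). Sprr1a had 482, 635, 295 and 483 CPM after vismodegib and 622, 193, 168 and 238 in BCC (0.64, SE 0.58, adjusted p = 0.484). Sprr4, a lone gene beside Sprr1a, had 0.425 to 1.86 CPM against 1.58 to 2.41 in BCC (-1.16, SE 0.56, not called). Sprr3 held 0 counts in the BCC group, 16 over the AFL mice and 13 over the vismodegib mice. Against a floor of 3 counts for the BCC group, its pooled level was at least 5.69-fold higher after AFL. After vismodegib it was at least 4.12-fold higher. Both ratios cover counting error only, not the spread between mice. By mouse, Sprr3 had 0, 0.122 and 0.186 CPM after AFL and 0, 0.0304, 0.0531 and 0.173 CPM after vismodegib. Both treated groups thus overlapped the BCC mice, which were at 0.

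All 6 Lce3 genes rose after vismodegib, and no vismodegib mouse overlapped a BCC mouse in any of them. Lce3b had 51.8, 17.2, 101 and 40.2 CPM against 0.434, 2.26, 1.43 and 0.245 in BCC (5.59, SE 0.79, adjusted p = 0.000512). Lce3a, at 17.3 to 83.5 CPM, changed by 5.79 (SE 0.93, adjusted p = 0.00113). Lce3c, Lce3d, Lce3e and Lce3f were 29.5 to 89.4, 30.7 to 88.5, 20.6 to 56.4 and 24.4 to 60.4 CPM, with log2 fold changes of 3.51, 4.16, 3.58 and 3.09.

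Lce1m, the member that lies beyond the Lce3 genes, fell. It had 43.8, 12.2, 5.79 and 48.9 CPM after vismodegib and 38.9, 67.2, 261 and 323 CPM in BCC (-2.64, SE 0.80, adjusted p = 0.0361). The groups overlapped, and the call ended without BCC mouse 5 or 8 and without vismodegib mouse 6 or 9. Lce1g rose by 1.24 (SE 0.41, adjusted p = 0.0481), a call that ended in 13 of 19 alternatives, among them those without BCC mouse 3, 4 or 8 and without vismodegib mouse 1, 9 or 12. The other 12 Lce1 genes ran from -0.53 to 0.87 and none was called. Lce6a was at 0.37 (SE 0.47).

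**Figure D3:**
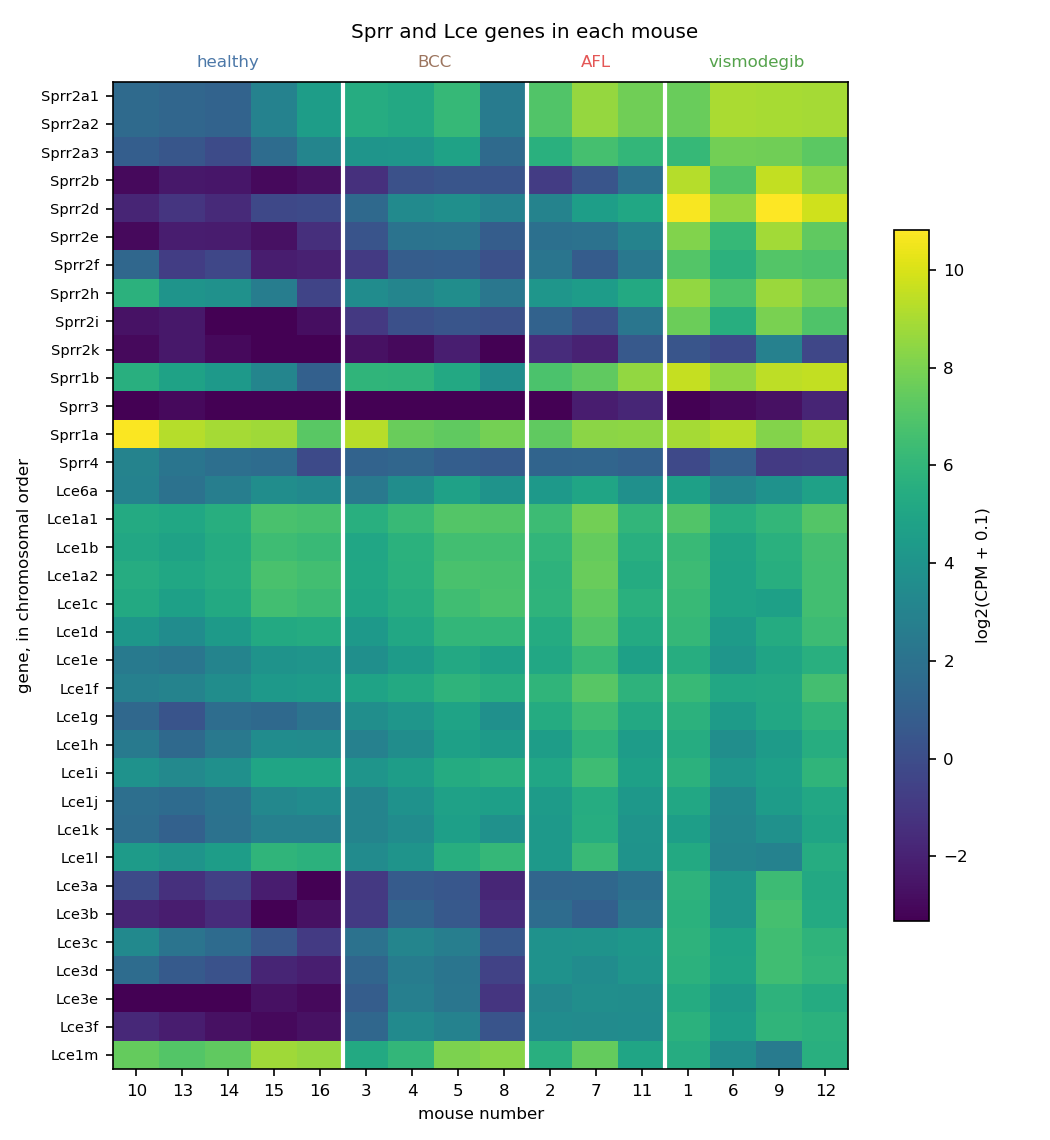
Log2(CPM + 0.1) of all 35 genes, in chromosomal order from top to bottom, for each of the 16 mice in 4 group blocks. Within each row, Sprr2b to Sprr2i and Lce3 are brightest in the 4 vismodegib mice, whereas most Lce1 rows have like colours in all 4 blocks.

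Compared with healthy skin, vismodegib skin had 23 members up and 2 down, where 7.57% of all genes rose and 4.07% fell. Without overlap, 22 lay higher and 1 lower, against 9.33% and 6.78% of all genes. Library size alone lowered the all-gene median by 0.27 and left 39.7% of all called genes up in place of 65%, with the same 25 members called. The 23 were all 10 Sprr2 genes, all 6 Lce3 genes, Sprr1b and the same 6 Lce1 genes that rose after AFL. Sprr2i (11.88, SE 0.78, adjusted p = 4.09e-07) and Sprr2b (12.83, SE 0.86, adjusted p = 4.09e-07) had the smallest p of their family, and Lce3f (9.00, SE 0.70, adjusted p = 1.21e-06) that of its own. Lce1m fell by 3.23 on the log2 scale (SE 0.81, adjusted p = 0.0204) from 132 to 440 CPM in healthy mice, without overlap. Sprr4 fell by 2.14 (SE 0.55, adjusted p = 0.0224) from 7.95, 4.34, 3.53, 3.13 and 0.795 CPM in healthy mice, and the lowest healthy mouse overlapped the vismodegib group. Without vismodegib mouse 9 neither Lce1m nor Sprr4 was called, and without healthy mouse 14 Lce1j was not. The call of Sprr4 also ended without mouse 1 or 12.

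The treated groups were then compared with each other. Of 34 members 9 were lower after AFL than after vismodegib and 0 were higher, where 2.46% of all genes were lower and 6.69% higher. Library size alone raised the all-gene median by 0.22 and the share of called genes that were higher after AFL from 73.1% to 87.6%, and 7 members stayed lower. At an unadjusted p under 0.05 there were 12 lower and 1 higher, where 11.6% and 14.3% of all genes passed. Without overlap, 12 lay lower, all 6 Lce3 genes among them, and 1 (Sprr4) higher, against 9.24% and 13.0% of all genes. The 9 called were Sprr2b, Sprr2d, Sprr2e, Sprr2f, Sprr2h, Sprr2i, Lce3a, Lce3b and Lce3f. Sprr2b had 0.476, 1.25 and 3.92 CPM after AFL, far under the vismodegib values above, with a log2 difference of -7.85 (SE 0.86, adjusted p = 0.000145). Sprr2i differed by -5.91 (SE 0.72, adjusted p = 0.000188) and Sprr2d, at 7.80, 24.1 and 33.9 CPM after AFL, by -5.74 (SE 0.81, adjusted p = 0.000502). Lce3b (-4.01, SE 0.82, adjusted p = 0.00638) and Lce3a (-4.07, SE 0.96, adjusted p = 0.0151) parted most among the Lce3 genes. The calls of Sprr2h (-3.42, SE 0.98, adjusted p = 0.0403) and Lce3f (-2.03, SE 0.60, adjusted p = 0.0449) were lost on leaving out any 1 of the 3 AFL mice, or vismodegib mouse 1, 9 or 12, and with library size alone. That of Lce3a was lost without AFL mouse 2 or 7.

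Sprr2a1 and Sprr2a2 (-0.82, SE 0.83) and Sprr2a3 (-1.19, SE 0.73) were not called between the treatments, and their mice overlapped. Summed, the Sprr2a genes had 300, 862 and 499 CPM after AFL and 457, 1255, 1225 and 1134 CPM after vismodegib. The 7 genes from Sprr2b to Sprr2k summed to 35.7, 54.7 and 96.1 CPM after AFL and to 3246, 760, 3810 and 1850 CPM after vismodegib. In healthy and BCC skin these 7 summed to 1.98 to 57.6 and to 17.0 to 34.1 CPM, so each AFL mouse lay above every BCC mouse and AFL mouse 11 above every healthy mouse. Within that sum Sprr2h made up 54.7 of the 57.6 CPM in healthy mouse 10.

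The share of Sprr2 counts that came from Sprr2a1, Sprr2a2 and Sprr2a3 was 83.9% to 94.0% after AFL and 12.3% to 62.3% after vismodegib, without overlap. It was 45.6% to 85.8% in BCC and 11.5% to 96.5% in healthy skin. The GENCODE vM21 transcripts of the Sprr2a genes are 2867 to 3003 bases long and those of the other Sprr2 genes 609 to 784, so these are shares of counts and not of molecules. Within Sprr1, Sprr1b held 1.29% to 4.41% of counts in healthy skin, 4.95% to 23.4% in BCC, 32.9% to 51.7% after AFL and 35.8% to 69.8% after vismodegib. Lce1m held 41.4% ± 1.86 (SD) of Lce1 counts in the 5 healthy mice and 20.3% ± 8.41 in the 4 BCC mice. It held 8.36% ± 2.11 in the 3 AFL mice and 3.92% ± 1.80 in the 4 vismodegib mice. No group overlapped a neighbouring one in the share of Lce1m. These shares do not depend on the scaling between libraries.

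**Figure D4:**
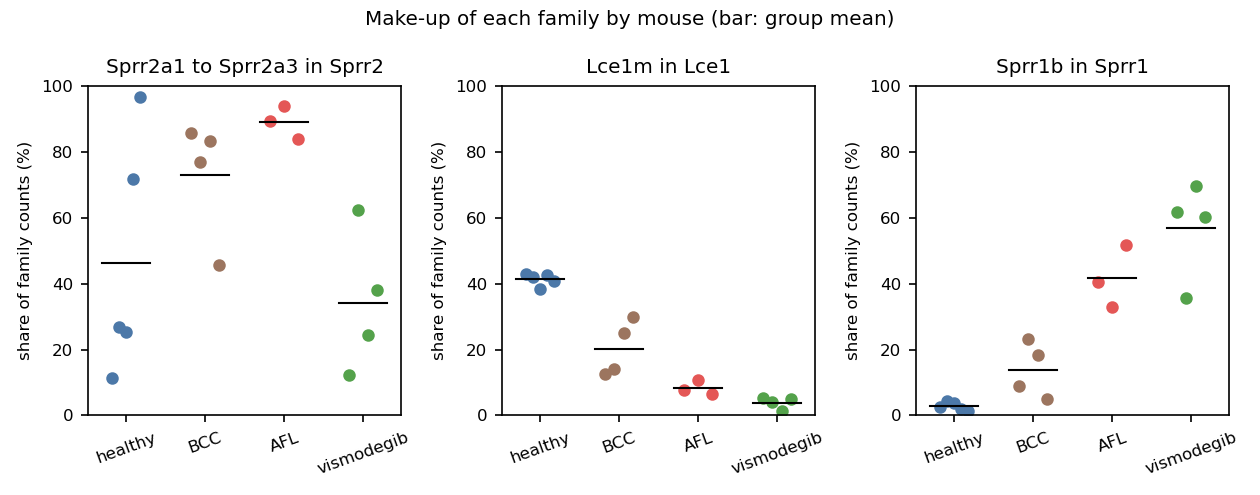
Share of each family's counts held by Sprr2a1 to Sprr2a3 (left), Lce1m (middle) and Sprr1b (right), in percent, with a point per mouse and a bar at the group mean. The healthy mice lie within 38.4% to 42.9% for Lce1m, and the 4 groups step down from there without overlap.

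In the 7 Lce1 genes called in no comparison, named below, all groups overlapped. Lce1a1, for example, had 40.4, 34.2, 47.5, 109 and 102 CPM in healthy mice and 45.4 to 133 CPM after vismodegib. Of the 14 Lce1 genes, 7 were called in no comparison (Lce1a1, Lce1a2, Lce1b, Lce1c, Lce1d, Lce1i and Lce1l). The 6 that rose against healthy skin in both treated groups, Lce1e, Lce1f, Lce1g, Lce1h, Lce1j and Lce1k, sit next to each other but for Lce1i. Lce1e had 4.61 to 16.3 CPM in healthy mice, 13.0 to 37.2 in BCC, 26.7 to 75.0 after AFL and 17.2 to 48.0 after vismodegib. Lce1k had 2.04 to 7.15, 8.17 to 24.8, 16.0 to 44.1 and 9.22 to 30.8 CPM in that order. Lce1h and Lce1j ran from 2.71 to 11.8 and from 3.00 to 11.9 CPM in healthy mice and from 10.5 to 61.5 CPM over both in treated mice. Lce6a, which was called nowhere, had 3.99 to 12.0 CPM in healthy mice and 8.83 to 31.4 in treated mice. The libraries of a mouse could differ as much: vismodegib mouse 12 had a Lce1 sum of 426 CPM in the first library and 1489 in the second, and 503 and 1251 CPM of Sprr2d.

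The level of growing-follicle genes differed between mice and moved with several members. Its score, the mean log2(CPM + 0.5) of 19 genes of growing follicles, was 4.35 to 9.36 in healthy mice, 8.49 in BCC mouse 3 and 1.98 to 3.19 in the other BCC mice. After AFL it was 0.657 to 3.53, and after vismodegib 8.38 in mouse 6 and 1.39 to 2.13 in the others. With the score beside the group in edgeR's fit, 17 of 34 members fell and 2 rose as the score rose, where 9.26% of all genes fell and 6.66% rose. All 14 Lce1 genes fell with it, from -0.17 (Lce1g) to -0.32 (Lce1l) on the log2 scale per unit of score, as did Lce6a, Sprr2d and Sprr2e. Sprr1a rose by 0.26 per unit (SE 0.07, adjusted p = 0.0205) and Sprr4 by 0.22 (SE 0.07, adjusted p = 0.043).

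Sprr1a itself had 1746, 617, 482, 442 and 146 CPM in healthy mice 10, 13, 14, 15 and 16, whose scores were 9.36, 8.76, 8.63, 6.81 and 4.35, the same order. Sprr2h, at 54.7, 15.6, 14.0, 6.28 and 0.651 CPM, kept that order too, as did Sprr4, Sprr1b, Lce3c and Lce3d. In edgeR's fit with score and group, the slope of Sprr2h was 0.14 per unit (SE 0.16, adjusted p = 0.562) and was not called. Those of Sprr1b, Lce3c and Lce3d were not called either (adjusted p = 0.337, 0.883 and 0.931). With the score in the fit, the calls of Lce1e, Lce1h, Lce1j and Lce1k against healthy skin ended after both treatments. After AFL those of Lce3a, Lce3d and Sprr2k ended as well, with adjusted p-values of 0.0645 to 0.457 over these 7 genes. The fall of Sprr4 after vismodegib was no longer called (adjusted p = 0.144), nor were Lce1f (adjusted p = 0.0624) and Lce3b (adjusted p = 0.106) in BCC against healthy skin. Calls were gained for Sprr1b, higher after AFL than in BCC, and for Lce1m, lower after AFL than in healthy skin. Between the treatments they were gained for Sprr4, higher after AFL, and Lce3e, lower. The vismodegib calls against BCC were 18 up and 1 down as before. BCC mouse 3 and vismodegib mouse 6, with scores of 8.49 and 8.38, had 2.72 and 351 CPM of Sprr2d. Each was the lowest of its group for this gene, and they are single mice.

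**Figure D5:**
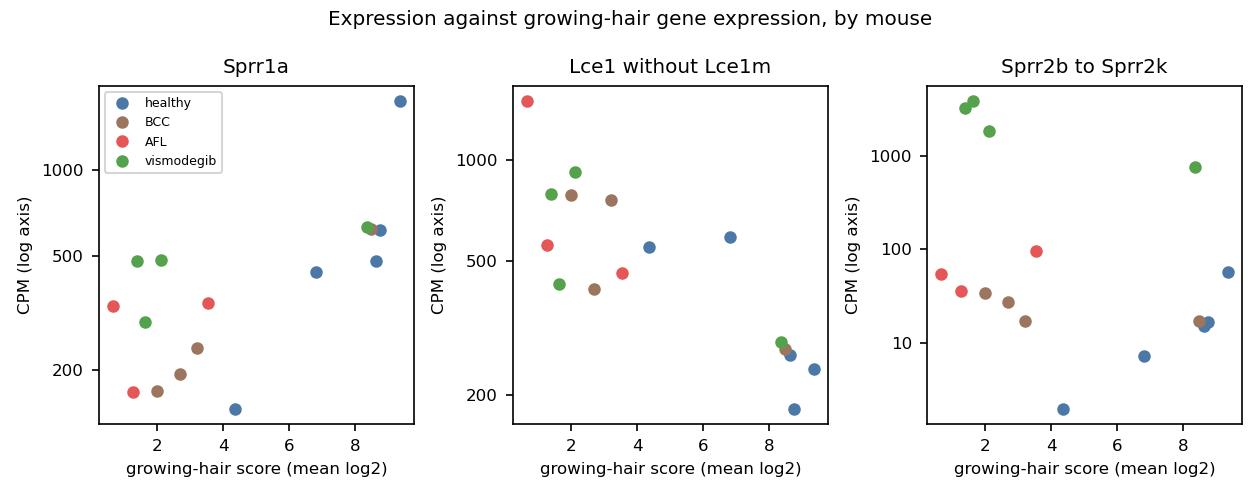
CPM on a log axis against the growing-hair score (mean log2) of each mouse, for Sprr1a, the Lce1 genes without Lce1m and Sprr2b to Sprr2k. The 5 mice with scores above 8 have 182 to 288 CPM of Lce1, under all the others, while Sprr2b to Sprr2k are highest in the 4 vismodegib mice whatever their score.

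Lists of other genes are read against all genes, of which 8.03% rose and 9.00% fell after vismodegib and 6.10% rose and 1.65% fell after AFL, each against BCC. Of 19 tested scaffold and crosslinking genes, 6 rose and 0 fell after vismodegib against BCC, among them Cnfn (2.50, SE 0.45, adjusted p = 0.00211) for cornifelin, Casp14 (1.88, SE 0.34, adjusted p = 0.00226), a protease of the cornified layer, and Rptn (2.78, SE 0.66, adjusted p = 0.0108) for repetin. The crosslinking enzymes Tgm1 (1.65) and Tgm3 (3.11) rose as well. After AFL Casp14 alone rose (1.43, SE 0.35, adjusted p = 0.0183). The list's median was 0.78 after vismodegib and 0.039 after AFL. Ivl, for involucrin, had 148 to 233 CPM after vismodegib and 93.5 to 156 in BCC and was not called.

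The epidermis also differed in its keratins. Krt14 of basal cells (2.10, SE 0.40, adjusted p = 0.00286) and Krt1 of the layers above (2.33, SE 0.61, adjusted p = 0.0174) rose after vismodegib against BCC, and 3 of 11 keratin and desmosome genes rose in all. After AFL they stood at 1.30 (adjusted p = 0.0674) and 1.40 (adjusted p = 0.21) and were not called. Of 5 keratins of wounded epidermis, Krt16 and Krt6b rose after both treatments and Krt6a after vismodegib. Krt16 had 333, 487, 370 and 112 CPM in BCC, 978, 1256 and 3627 after AFL, and 6701, 4353, 15228 and 6312 after vismodegib. The part of these epidermal differences in the Sprr and Lce levels was not tested.

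Of 24 regulators of epidermal differentiation, 7 rose and 0 fell after vismodegib against BCC: Ehf (2.30, SE 0.45, adjusted p = 0.0037), Nfkbiz (1.84, SE 0.36, adjusted p = 0.0037), Grhl3 (1.82, SE 0.37, adjusted p = 0.00454), Fosl1, Ovol1, Nfe2l2 and Junb. Fosl1, which encodes an AP-1 protein, had 1.46 to 3.90 CPM in BCC, 4.28, 6.01 and 18.7 after AFL, and 16.5, 4.69, 11.6 and 8.85 after vismodegib. It rose after both treatments (1.90, adjusted p = 0.0288, and 2.00, adjusted p = 0.0118), and Fos rose after AFL (1.73, SE 0.50, adjusted p = 0.0456). Ehf, Grhl3 and Ovol1 were lower after AFL than after vismodegib.

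Of 15 tested cytokines that act on keratinocytes, 10 rose after vismodegib and 5 after AFL, each against BCC, and 0 fell. Il17f had 7.04, 3.41, 35.4 and 6.81 CPM after vismodegib and at most 0.245 in BCC (6.80, SE 0.86, adjusted p = 0.000278). It was at 0.0620 to 0.0915 CPM after AFL, lower than after vismodegib (-7.46, SE 1.01, adjusted p = 0.000371). Il17a and Il19 also rose after vismodegib (7.11 and 6.56). Osm, for oncostatin M, had 8.09, 6.28 and 52.9 CPM after AFL, 0.588 to 0.995 in BCC and 2.04 to 2.66 after vismodegib, and rose after AFL (4.93, SE 0.66, adjusted p = 0.0002). Il1b (5.21) and Il24 (4.58) rose after AFL too. The summed CPM of 8 neutrophil markers was 39.5 to 149 in BCC, 190 to 2729 after AFL and 2434 to 49428 after vismodegib. Gene by gene, 1 of these 8 was called higher after AFL than after vismodegib and 0 lower, with a median log2 difference of 0.20. Of all genes 6.69% were called higher and 2.46% lower there. The summed CPM of 8 macrophage markers was 233 to 374 in BCC, 1985 to 2083 after AFL and 471 to 1228 after vismodegib. Of 10 sebaceous gland markers 3 rose after vismodegib (Elovl3 2.19, Awat1 1.56 and Mgst1 1.35), with sums of 2870 to 4610 CPM in BCC, 2316 to 4873 after AFL and 2108 to 9802 after vismodegib. Of 8 dermal fibroblast markers 2 fell after vismodegib (Col1a1 -2.80 and Col1a2 -2.25), with sums of 6733 to 22936, 21362 to 22105 and 3377 to 10143 CPM. The part of these cells in the Sprr and Lce levels was not tested.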

How the data were processed

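Skin RNA of 19 libraries was sequenced from 16 mice. The authors deposited expected counts per gene, without normalisation, and 3.42% of the values are not whole. Libraries were oligo dT selected with a directional kit, per the labels' protocols. Bowtie2, RSEM and GRCm39 are named in the submitters' processing notes. Their versions, the annotation and the strand setting were not given in the sources used here. Antisense reads may therefore be counted in.

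The deposited expected counts were rounded, the libraries of mice 11, 12 and 16 were summed, and filterByExpr kept 15760 genes. All 16 mice entered one edgeR 4.0.16 quasi-likelihood fit (R 4.3.3, TMM, robust, group as sole term). Each of 6 contrasts was adjusted by Benjamini and Hochberg over all genes tested. "Rose" and "fell" mean an adjusted p under 0.05. The fit was tested on simulated data. Alternatives included DESeq2 1.42.0 and limma voom 3.58.1.

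The members and lists were chosen with earlier results of these data known. Named are members called in at least 1 comparison, the most counted member of each family, and of each list up to 3 called genes with the smallest p. Other genes and values were chosen after they were seen. The labels call the mice biological replicates. Intervals and floors cover counting error only.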

Additional observations from a re-analysis of the deposited data

Results flagged for a closer look

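In 120 groups of 4 or 5 mice, a mouse was looked for that lay far from the others relative to the group's range, by Dixon's criterion at the 95% level, which chance meets in about 1 of 20 groups. Sprr1a was high in BCC mouse 3, at 622 CPM against 168 to 238 in the other BCC mice, and the Sprr1 sum with it, at 682 CPM. The same mouse had a growing-hair score of 8.49, against 1.98 to 3.19. Healthy mouse 10 was high in Sprr2h (54.7 CPM, the next mouse 15.6), in Sprr2f (2.54, the next 0.718) and in the sum of all Sprr genes (1867, the next 672). Healthy mouse 16 was high in Sprr2a1 and in Sprr2a2, both with 23.2 CPM against 2.15 to 7.58. Vismodegib mouse 1 was low in Sprr2a1 and in Sprr2a2, both with 193 CPM against 489 to 516. Vismodegib mouse 9 was high in Sprr2k, at 7.22 CPM against 0.692 to 1.23.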

How the results depend on the processing

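The 83 calls of a member in a comparison were recomputed under 17 to 19 alternatives each, giving 1544 values. None turned direction, 96 lost the call, and 59 of the 83 calls held under every alternative run. The growing-hair score and limma voom each ended 14 calls, DESeq2 ended 0. In BCC against healthy the count of 9 became 15 in DESeq2 and 5 in limma voom. In AFL against BCC the count of 1 became 0 with library size alone, 6 with all 19 libraries as replicates, 2 with the growing-hair score, 6 in DESeq2, 6 in limma voom and 0 to 1 without a mouse. The cause was not tested. Values that were not called turned sign for Lce1f in AFL against BCC with days since induction (-0.0842) and for Lce1d (-0.10), Lce1i (-0.13) and Lce6a (-0.0402) in AFL against healthy with the growing-hair score. The family sums moved by less than their SD under each scaling tried.

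Replicate numbers are not stated to pair the mice. Over 21 pairs with the same number, deviations correlated from -0.385 to 0.616. Pairs with different numbers were not correlated, so this range cannot show whether the numbers pair mice. With the replicate block the count in AFL against BCC was 5 (Lce1g, Sprr1b, Sprr2a1, Sprr2a2 and Sprr2k), and 4 of the 83 calls ended. With 3 to 5 mice a group, near-identical copies and levels near 0 in healthy skin, single folds of Sprr2 and Lce3 genes are imprecise.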
